A study of Mus musculus with 8 samples.

Results

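The 7 genes described here encode the collagen chains of cartilage fibrils: Col2a1 for collagen II, Col9a1, Col9a2 and Col9a3 for collagen IX, Col11a1 and Col11a2 for collagen XI, and Col27a1 for collagen XXVII. They were taken by gene name from a table of 22053 rows of protein-coding genes, in which each name had a single row, and all 7 passed the filter on low values. RNA was sequenced from 8 libraries of sorted skeletal cells of WT mice at postnatal day 10. The 4 vSSC libraries (candidate vertebral skeletal stem cells) came from the spine, and the 4 lbSSC libraries (long bone skeletal stem cells) came from femur and tibia. In each group replicates 1 and 2 were male and replicates 3 and 4 were female. All 8 shared 1 sorting gate, CD200+ cells that lacked CD105, 6C3, Thy, CD45, TER119 and CD31. The gate is defined by surface markers alone, and the labels call the libraries biological replicates without saying how many animals each held. The p-values therefore measure the spread between these samples, which may be partly technical.

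Cartilage fibrils are thin and built from several collagens. Collagen II, a homotrimer, makes up their bulk. Collagen XI, a heterotrimer that also uses a chain from the Col2a1 gene, lies within the fibril, helps to nucleate it and limits its width. Collagen IX, built from a chain of each of its genes, sits on the fibril surface and links it to other fibrils and to matrix proteins. Collagen XXVII is a fibrillar collagen of cartilage that forms thin fibrils of its own. SOX9, with SOX5 and SOX6, is the best known activator of these genes in chondrocytes, acting largely through enhancers outside the promoter.

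In GRCm38 (mouse) coordinates, with start and end as annotated for the whole gene, Col2a1 spans chr15:97975602-98004695 on the minus strand. The others lie on the plus strand. They are Col9a1 at chr1:24177610-24252684, Col9a2 at chr4:121039385-121055322, Col9a3 at chr2:180597790-180622189, Col11a1 at chr3:114030540-114220718, Col11a2 at chr17:34039437-34066685 and Col27a1 at chr4:63214004-63334991. Exons of Col9a3 share bases with Tcfl5 on the opposite strand, and the library kit does not mark strand, so reads from that stretch cannot be told apart.

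RefSeq promoter sequence (build GRCm38.p6, the 250 bases before a transcript start) was matched for 5 of the 7 genes, in 6 windows. The 3 windows printed here belong to the chain that varied least between libraries, Col9a1, and to the partner chains of collagen XI, of which Col11a2 varied most. All are on the plus strand, 5′ to 3′, at chr1:24177360-24177609 for Col9a1, chr3:114030290-114030539 for Col11a1 and chr17:34038888-34039137 for Col11a2. Capitals mark GC boxes (GGGCGG, which reads CCGCCC where it lies on the other strand) and a TATA box (TATAAA).
Col9a1: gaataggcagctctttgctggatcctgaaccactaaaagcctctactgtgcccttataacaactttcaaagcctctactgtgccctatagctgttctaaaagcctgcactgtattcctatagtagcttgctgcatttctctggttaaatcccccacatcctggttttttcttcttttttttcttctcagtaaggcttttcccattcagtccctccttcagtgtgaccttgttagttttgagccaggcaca
Col11a1: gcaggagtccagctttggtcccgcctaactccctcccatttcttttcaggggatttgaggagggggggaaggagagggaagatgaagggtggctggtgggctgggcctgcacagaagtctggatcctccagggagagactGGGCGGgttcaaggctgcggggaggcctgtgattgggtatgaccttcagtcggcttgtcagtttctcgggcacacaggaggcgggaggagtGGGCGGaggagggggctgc
Col11a2: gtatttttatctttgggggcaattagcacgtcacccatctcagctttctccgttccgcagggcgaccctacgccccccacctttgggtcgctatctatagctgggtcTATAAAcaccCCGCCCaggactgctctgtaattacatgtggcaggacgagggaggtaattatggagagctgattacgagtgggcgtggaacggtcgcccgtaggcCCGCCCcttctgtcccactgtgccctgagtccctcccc
The Col9a1 window printed held none of the motifs searched and had a GC content of 43.6%, against a median of 52.4% over all promoter windows. A second Col9a1 window, before a transcript start inside the gene, also held none of them and had a GC content of 56.0%. The Col11a1 window held 2 GC boxes on the plus strand and had a GC content of 62.4%. In Col11a2 a TATA box began 143 bases before the start, and both GC boxes lay on the minus strand. A GC box occurred in 4 of the 6 windows of these genes and in 32.7% of 32851 windows of the same length, and a TATA box in 1 of 6 and in 12.4%. The SOX core letters ACAAT and the related ACAAAG, each searched on both strands, were in 0 of 6 windows, against 27.7% and 16.5% of all windows. A match or its absence describes only the letters of these windows.

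FPKM counts fragments relative to the length of the transcript and to the library's mapped fragments, which allows genes to be compared per length. Per library, FPKM summed to between 517314 and 571869 in vSSC and between 460302 and 521489 in lbSSC over the protein-coding genes, and read totals were not used here, so counting error is unknown. The cartilage label was checked with 5 chondrocyte markers found in the table (Acan, Sox9, Comp, Hapln1 and Matn3), which summed to 6017 to 6723 FPKM in vSSC and 3770 to 4273 FPKM in lbSSC. Hapln1 and Matn3 were higher in vSSC (adjusted p = 0.000389 and 1.74e-05 in limma), and Acan, Sox9 and Comp did not pass that test. Endothelial markers were near 0, with sums of at most 0.287 FPKM in vSSC and 0.169 FPKM in lbSSC. Neutrophil markers summed to 285 to 439 FPKM in vSSC and 26.4 to 118 FPKM in lbSSC, and erythroid markers to 3797 to 5348 FPKM in vSSC and 4240 to 8742 FPKM in lbSSC, although CD45 and TER119 were used to remove blood cells. Osteoblast markers summed to 403 to 612 FPKM in vSSC and 351 to 978 FPKM in lbSSC. Ribosomal protein genes (80 genes) took 18.6% to 21.7% of the FPKM in vSSC and 15.9% to 18.7% in lbSSC. The part of these cell types in the collagen values was not tested, and in bulk samples fewer cells of a type and less RNA per cell cannot be told apart.

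The cartilage collagens were among the most abundant transcripts of both cell populations, and no chain differed by site beyond the spread between libraries. The 7 genes together held 2.04%, 3.43%, 2.06% and 4.14% of all FPKM in vSSC replicates 1 to 4, and 3.14%, 3.01%, 4.16% and 5.80% in lbSSC replicates 1 to 4. Differences are given as vSSC minus lbSSC on the scale of log2(FPKM + 1), with p from limma adjusted over 10729 genes, and a gene was called at an adjusted p under 0.05. Of the 7 genes 0 were called in limma, and 0 had an unadjusted p under 0.05, while 2518 of all 10729 genes tested (23.5%) were called. All 7 differences were negative, from -0.49 to -0.02, beside a median of 0.08 over all genes tested. Groups that did not overlap were seen for 0 of the 7 genes and for 25.8% of all genes tested.

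Collagen II came first. Col2a1 stood at 7443, 13426, 7528 and 15067 FPKM in vSSC replicates 1 to 4, and at 11146, 10803, 14634 and 20002 FPKM in lbSSC replicates 1 to 4. vSSC replicates 1 and 3 were low, lbSSC replicate 4 was high, and the groups overlapped. The gene ranked between 1 and 3 in every library among all protein-coding genes. Its mean was 10866 ± 3960 FPKM in vSSC and 14146 ± 4270 FPKM in lbSSC (SD, n = 4 each). That is a difference of -0.41 ± 0.28 (SE), with a 95% interval from -1.02 to 0.20 and an adjusted p of 0.301 (limma). Col2a1 made up 67.8% ± 4.4 of the summed FPKM of the 7 genes in vSSC and 71.4% ± 3.3 in lbSSC (SD, n = 4 each).

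The chains of collagen IX were the steadiest of the family. Col9a1, whose long form carries an extra N-terminal domain, stood at 1666, 1702, 1731 and 2192 FPKM in vSSC, and at 2022, 1886, 1880 and 2246 FPKM in lbSSC. The first 3 vSSC libraries were below all 4 lbSSC libraries, but vSSC replicate 4 was above 3 of them, so the groups overlapped. The mean was 1823 ± 248 FPKM in vSSC and 2008 ± 171 FPKM in lbSSC (SD, n = 4 each), and the difference was -0.15 ± 0.13 (SE, adjusted p = 0.435 in limma). Col9a2, a chain whose human gene is known from multiple epiphyseal dysplasia, stood at 834, 1045, 879 and 1396 FPKM in vSSC, and at 1138, 1002, 1147 and 1529 FPKM in lbSSC. vSSC replicates 1 and 3 were the lowest of the 8 libraries and replicate 4 of each group the highest. Its difference was -0.23 ± 0.18 (SE, adjusted p = 0.377 in limma). Col9a3, the remaining chain of the heterotrimer, stood at 885, 996, 968 and 1299 FPKM in vSSC, and at 1060, 918, 969 and 1236 FPKM in lbSSC. Here the groups lay almost wholly over each other, with a difference of -0.02 ± 0.14 (SE) and a 95% interval from -0.33 to 0.30 (adjusted p = 0.941 in limma). Tcfl5, the gene overlapping it on the other strand, averaged 5.03 FPKM over the 8 libraries.

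Collagen XI was lower than collagen IX, and its chains were unequal. Col11a1 stood at 518, 749, 444 and 866 FPKM in vSSC, and at 606, 650, 799.9 and 876 FPKM in lbSSC. vSSC replicates 1 and 3 were again the lowest, and the other vSSC libraries fell among the lbSSC libraries. The difference was -0.22 ± 0.21 (SE, adjusted p = 0.457 in limma). Col11a2, the chain with the largest spread of the 7, stood at 213, 475, 204 and 526 FPKM in vSSC, and at 349, 336, 499 and 719 FPKM in lbSSC. The lowest vSSC library and the highest lbSSC library were 3.52-fold apart. The difference of -0.49 ± 0.33 (SE) had a 95% interval from -1.21 to 0.24 and an adjusted p of 0.303 (limma).

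Col27a1, the least abundant of the 7, stood at 25.0, 52.4, 24.8 and 71.6 FPKM in vSSC, and at 36.5, 34.2, 49.4 and 68.7 FPKM in lbSSC. The vSSC libraries held both the lowest and the highest values of the 8. Its mean was 43.5 ± 22.8 FPKM in vSSC and 47.2 ± 15.8 FPKM in lbSSC (SD, n = 4 each), and the difference was -0.21 ± 0.33 (SE, adjusted p = 0.668 in limma). The interval from -0.92 to 0.51 leaves room for a sizeable difference in either direction.

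**Figure D1:**
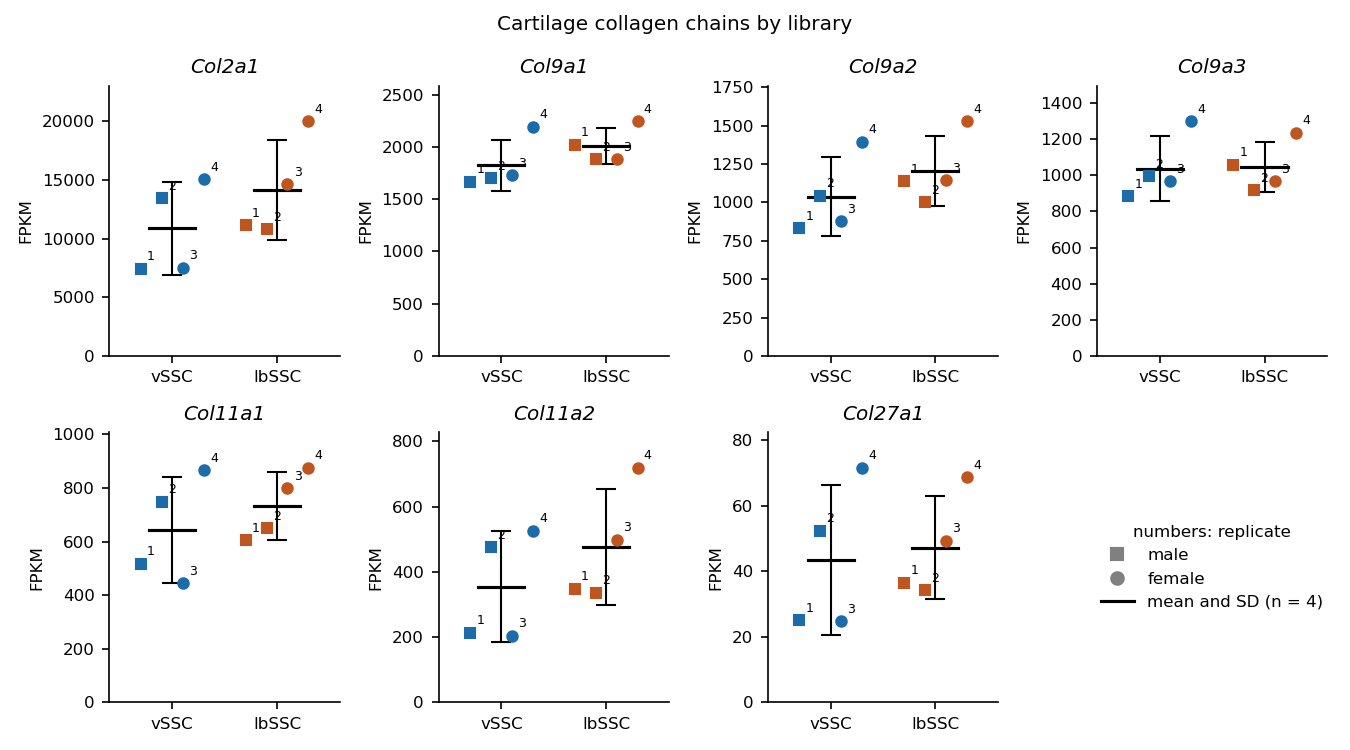
FPKM of each of the 7 genes in the 4 vSSC and 4 lbSSC libraries, with squares for males, circles for females, the replicate number beside each point, and the mean and SD (n = 4) as lines. In every panel the groups overlap, replicate 4 is the highest of its group, and vSSC replicates 1 and 3 are the 2 lowest of the 8 libraries for 5 of the 7 genes.

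In order of level, Col2a1 was first, followed by Col9a1, the pair Col9a2 and Col9a3, then Col11a1, Col11a2 and Col27a1. This order held in each of the 8 libraries except within the pair. Col9a2 averaged 1038 ± 255 FPKM and Col9a3 1037 ± 181 FPKM in vSSC, and in lbSSC they averaged 1204 ± 227 FPKM and 1046 ± 140 FPKM (SD, n = 4 each). Within libraries, Col9a3/Col9a2 ran from 0.931 to 1.10 in vSSC and from 0.808 to 0.931 in lbSSC. Col9a3 was thus the lower of the pair in every lbSSC library, while their order varied in vSSC. By mean over the 8 libraries, Col2a1 ranked 2 among all protein-coding genes, Col9a1 32, Col9a2 68, Col9a3 77, Col11a1 122, Col11a2 192 and Col27a1 1589.

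Chain ratios within a library do not depend on the library's total. For 10 ratios the log2 difference was tested with a two-sided exact permutation test over 70 assignments, which cannot go below 0.0286, and p was adjusted over the 10 ratios. No ratio had groups that did not overlap, and none passed after adjustment. A single ratio at the smallest p would still have an adjusted p of 0.286, so the design had little power here.

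Within collagen IX, the ratios of Col9a3 to its partner chains came nearest to separating the groups. Col9a3/Col9a1 was 0.531, 0.585, 0.559 and 0.593 in vSSC, and 0.524, 0.487, 0.515 and 0.550 in lbSSC. Of the vSSC libraries only replicate 1 lay below the highest lbSSC library. The log2 difference was 0.13 ± 0.05 (SE), with an exact permutation p of 0.0571 and an adjusted p of 0.286. Col9a3/Col9a2 was 1.06, 0.953, 1.10 and 0.931 in vSSC, and 0.931, 0.916, 0.845 and 0.808 in lbSSC. The groups met at vSSC replicate 4 and lbSSC replicate 1 and were otherwise apart, with a difference of 0.21 ± 0.08 (SE, exact permutation p = 0.0571, adjusted p = 0.286). These ratios share Col9a3 and are not independent of each other. Col9a2/Col9a1 averaged 0.565 ± 0.071 in vSSC and 0.596 ± 0.065 in lbSSC (SD), a difference of -0.08 ± 0.12 (SE, exact permutation p = 0.514, adjusted p = 0.514).

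Within collagen XI, Col11a2/Col11a1 was 0.412, 0.634, 0.460 and 0.608 in vSSC, and 0.576, 0.517, 0.623 and 0.821 in lbSSC. Col11a2 was thus the lower chain in all 8 libraries, and most so in vSSC replicates 1 and 3. The difference was -0.27 ± 0.21 (SE, exact permutation p = 0.257, adjusted p = 0.429).

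Set against collagen II, the sum of the collagen XI chains varied little. The summed FPKM of Col11a1 and Col11a2 over that of Col2a1 was 0.0982, 0.0911, 0.0862 and 0.0924 in vSSC, and 0.0857, 0.0912, 0.0887 and 0.0798 in lbSSC. The highest library exceeded the lowest by only 1.23-fold, while Col2a1 itself ranged over 2.69-fold. The site difference was 0.09 ± 0.06 (SE, exact permutation p = 0.171, adjusted p = 0.4). Alone, Col11a1/Col2a1 differed by 0.19 ± 0.12 (exact permutation p = 0.171) and Col11a2/Col2a1 by -0.08 ± 0.11 (exact permutation p = 0.514), with SE after each. Over the 8 libraries the highest value exceeded the lowest by 1.59-fold for Col11a1/Col2a1, 1.32-fold for Col11a2/Col2a1 and 1.99-fold for Col11a2/Col11a1, so the single chains varied more than their sum.

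In the FPKM values as reported, collagen IX did not keep such a proportion. The summed FPKM of its 3 chains over that of Col2a1 was 0.455, 0.279, 0.475 and 0.324 in vSSC, and 0.379, 0.352, 0.273 and 0.251 in lbSSC. It was highest in vSSC replicates 1 and 3, the libraries in which Col2a1 was lowest, and lowest in lbSSC replicate 4, where Col2a1 was highest. Col2a1 is the denominator of this ratio and ranged over 2.69-fold, against at most 1.83-fold for a collagen IX chain. An inverse pattern is therefore partly built into the ratio. The difference between the sites was 0.27 ± 0.24 (SE, exact permutation p = 0.314, adjusted p = 0.449). The collagen IX sum over the collagen XI sum averaged 4.18 ± 1.11 in vSSC and 3.62 ± 0.64 in lbSSC (SD), a difference of 0.18 ± 0.23 (SE, exact permutation p = 0.486, adjusted p = 0.514).

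Col27a1/Col2a1 was 0.00336, 0.00390, 0.00329 and 0.00475 in vSSC, and 0.00328, 0.00317, 0.00337 and 0.00343 in lbSSC. The lbSSC libraries were tightly grouped, and vSSC replicates 2 and 4 lay above them all. The difference was 0.19 ± 0.12 (SE, exact permutation p = 0.2, adjusted p = 0.4).

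**Figure D2:**
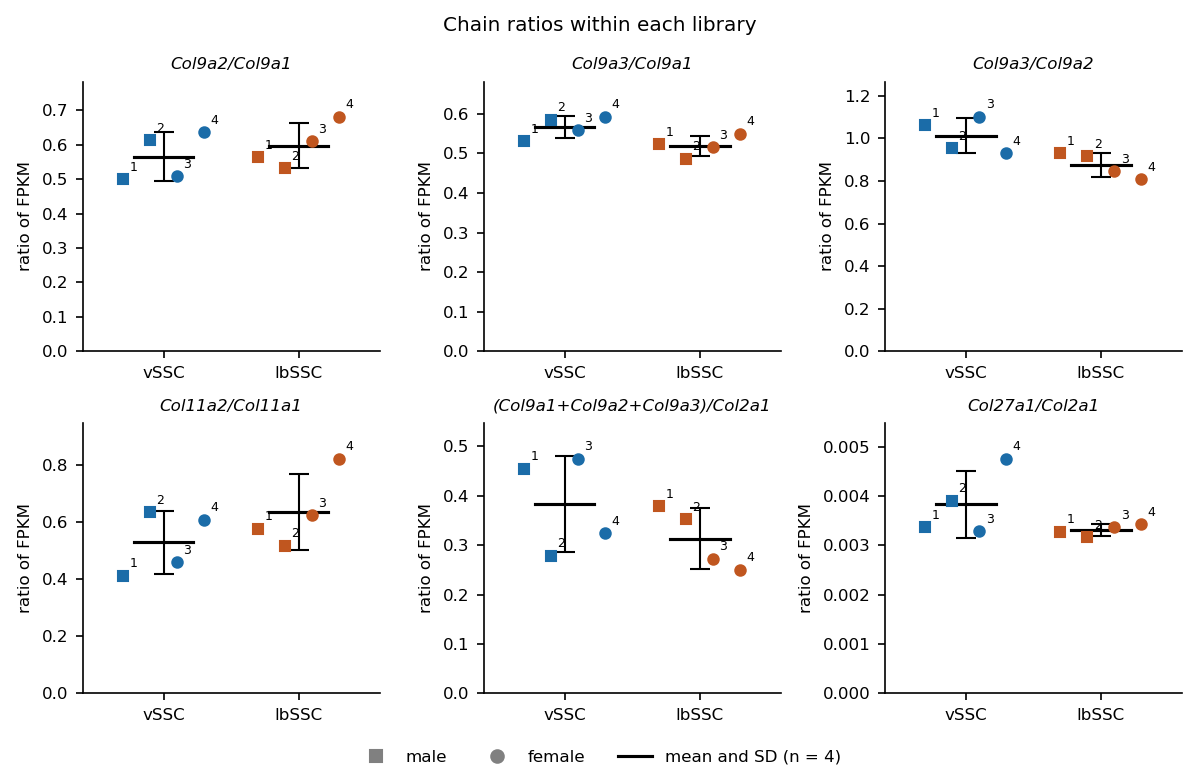
Ratio of FPKM between chains within each library, for 6 of the 10 ratios, with squares for males, circles for females, replicate numbers, and the mean and SD (n = 4) as lines. The Col9a3/Col9a1 and Col9a3/Col9a2 panels have nearly separate groups, while the collagen IX sum over Col2a1 is highest in vSSC replicates 1 and 3 (0.455 and 0.475).

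Libraries of the same site also differed from each other. Within vSSC the highest library exceeded the lowest by 2.57-fold for Col11a2, 2.89-fold for Col27a1, 2.02-fold for Col2a1 and 1.32-fold for Col9a1. Within lbSSC this ratio was 2.14 for Col11a2, 2.01 for Col27a1, 1.85 for Col2a1 and 1.19 for Col9a1. vSSC replicates 1 and 3, a male and a female library, were the 2 lowest of the 8 for 5 of the 7 genes, and lbSSC replicate 4 was the highest for 5. Replicate 4 was the highest of its own group for all 7 genes in both groups. Over all 8 libraries, both sites together, the ratio of the highest to the lowest library was 3.52 for Col11a2, 2.89 for Col27a1, 2.69 for Col2a1, 1.97 for Col11a1, 1.83 for Col9a2, 1.47 for Col9a3 and 1.35 for Col9a1. The SD within groups on the log2 scale was 0.63 for Col11a2, at percentile 99.1 among 4986 genes with a mean FPKM of at least 10. It was 0.16 for Col9a1, at percentile 30.9, beside a median gene at 0.191. The 7 genes thus ran from below the median abundant gene to near the top in spread.

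The genes with the widest spread have long, GC-rich transcripts. The transcripts of Col11a2 (6048 bases, 62.9% GC), Col27a1 (7612 bases, 59.4% GC) and Col2a1 (5104 bases, 62.2% GC) stand against that of Col9a1, with 3834 bases and 52.2% GC, while Col11a1 is long (7667 bases) but has 48.0% GC. Across 47 other genes with transcripts over 5000 bases and at least 55% GC, the median deviation from a gene's mean was -0.56, -0.0054, -0.59 and 0.07 (log2) in vSSC replicates 1 to 4. In lbSSC replicates 1 to 4 it was -0.03, 0.11, 0.33 and 0.51. vSSC replicates 1 and 3 were thus low and lbSSC replicate 4 high both for these genes and for most of the collagens. vSSC replicate 4 stood apart from this, since it ranked highest or second highest of the 8 for all 7 collagens but lay below lbSSC replicates 2, 3 and 4 for the 47 genes. The ribosomal protein share moved the opposite way, at 21.5%, 19.8%, 21.7% and 18.6% in vSSC and 18.7%, 18.1%, 15.96% and 15.93% in lbSSC. After the trends on length and GC were removed from every library, a step chosen after the data were seen, the ratio of highest to lowest library was 1.78 for Col11a2, 1.603 for Col2a1 and 2.08 for Col27a1, and 1.35 for Col9a1. Removing a single trend left more of the spread, at 3.05 for Col11a2 and 2.60 for Col2a1 with length alone, and 3.09 and 2.42 with GC alone. What sets these library differences was not tested.

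**Figure D3:**
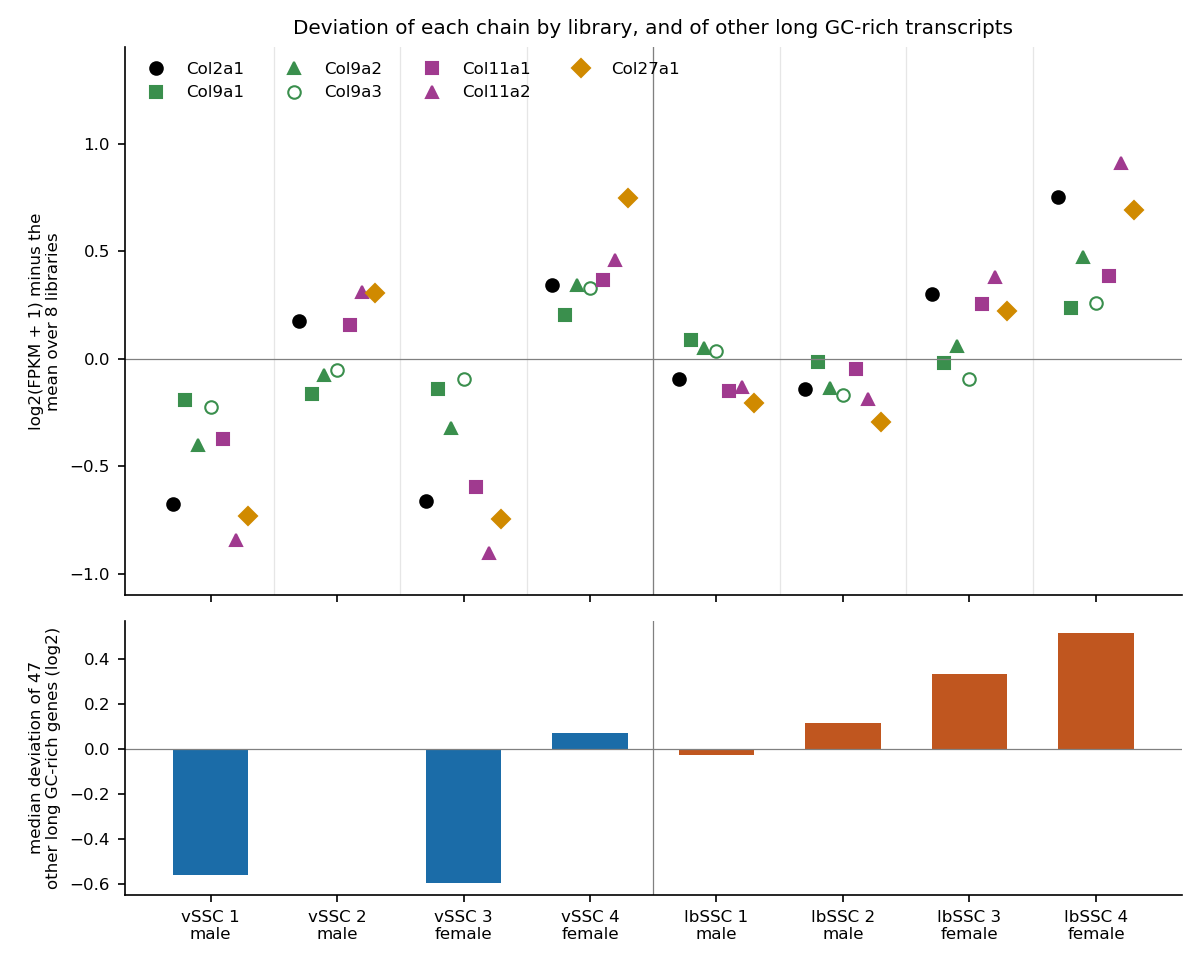
Upper panel, log2(FPKM + 1) of each gene minus its mean over the 8 libraries, by library; lower panel, the median deviation of 47 other genes with long, GC-rich transcripts in the same libraries. vSSC replicates 1 and 3 are lowest in the lower panel and for 5 of the 7 genes in the upper one, and vSSC replicate 4 is high for the collagens but near 0 (0.07) for the other genes.

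The site differences were also computed without both vSSC replicates 1 and 3. These are the lowest vSSC libraries for 6 of the 7 genes, so leaving them out raises the vSSC mean of those genes by construction. Without them the difference was 0.05 for Col2a1, 0.02 for Col9a2, 0.13 for Col9a3, 0.15 for Col11a1, 0.14 for Col11a2 and 0.42 for Col27a1, and it was -0.05 for Col9a1. None of the 7 was called, and 1095 genes were called in all. When each library's ribosomal protein share entered the fit, all 7 differences turned positive, and 621 genes were called. In that fit Col11a1, at 0.53 (adjusted p = 0.0462 in limma), and Col27a1, at 1.05 (adjusted p = 0.0237 in limma), were called higher in vSSC. The share itself differed between the sites, so site and share are hard to separate with 8 libraries. With the length and GC trends removed, the difference was 0.24 for Col27a1, 0.11 for Col9a3 and between -0.10 and -0.03 for the other 5 genes, and none was called.

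**Figure D4:**
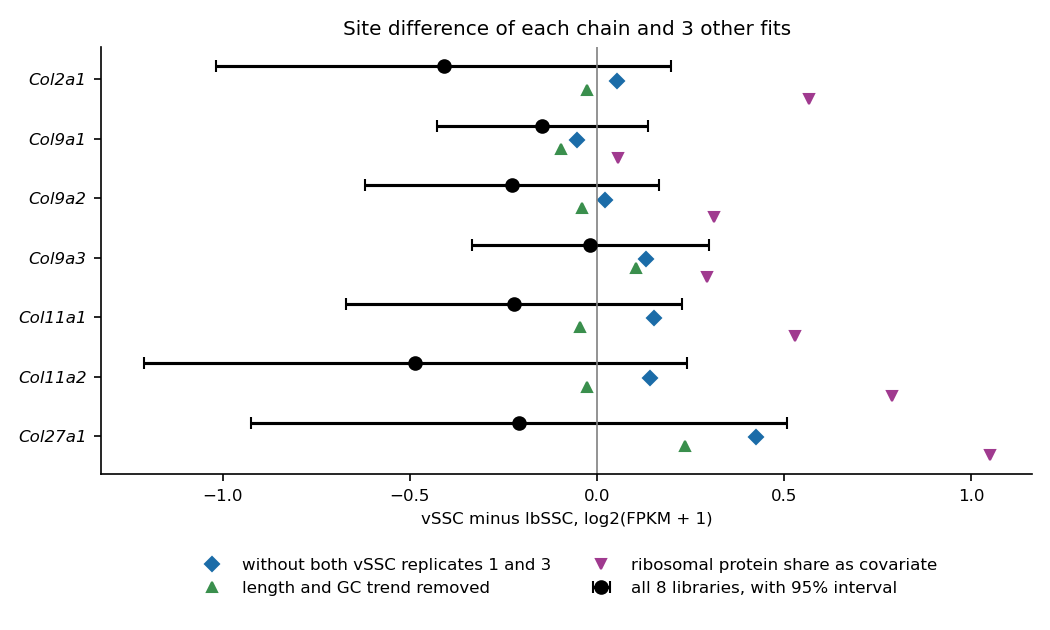
Difference vSSC minus lbSSC on the scale of log2(FPKM + 1) for each gene, with the 95% interval from all 8 libraries (circles and bars) and the values of 3 other fits (diamonds and triangles). All 7 intervals include 0, and the fit adjusted for ribosomal protein share lies right of 0 for all 7 genes, up to 1.05 for Col27a1.

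Males and females were compared with site as a covariate. All 7 genes were lower in males, with differences (male minus female) from -0.46 for Col27a1 to -0.14 for Col9a1, and adjusted p between 0.657 and 0.741 (limma). Of these 7 genes 0 were called, and 0 had an unadjusted p under 0.05, beside 5 of 10729 genes (0.0466%) called and 892 with an unadjusted p under 0.05. The 2 male lbSSC libraries lay below the 2 female ones for Col2a1, Col9a2, Col11a1, Col11a2 and Col27a1. In vSSC the higher and lower libraries fell in both sexes for every gene but Col9a1, whose male libraries were the 2 lowest of the 8. Col2a1 averaged 10434.5 FPKM in male vSSC and 11298 FPKM in female vSSC, and 10974 FPKM in male lbSSC and 17318 FPKM in female lbSSC (n = 2 each). The site by sex interaction had adjusted p between 0.981 and 0.991 for the 7 genes (limma), with 0 of 10729 genes called (0.00%) and 405 at an unadjusted p under 0.05.

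The genes most like each chain were taken as those with the smallest SD of the log2 ratio over the 8 libraries, among tested genes with a mean FPKM of at least 10. For Col2a1 these were Cspg4, a membrane proteoglycan (SD 0.106), Tns2, a focal adhesion protein (SD 0.135), and Clstn1 (SD 0.143), and Col11a2 came at rank 4 of 4985. Col27a1 ranked 14, Col11a1 16 and Col9a2 46 for Col2a1, and Col9a3 and Col9a1 ranked 277 and 313. The nearest gene to Col11a2 was Col2a1 (SD 0.148), and the nearest to Col9a3 was Col9a1 (SD 0.0955). The nearest to Col27a1 was Acan, the core protein of aggrecan (SD 0.127), followed by Fn1, which encodes fibronectin (SD 0.133). Col9a1 was nearest to Pofut1, Sppl2b and Slc39a7, Col9a2 to Jund, Phlda1 and Tiparp, and Col11a1 to Sf1, Creb3l2 and Wbp11. The 8 libraries differed in composition, as in their ribosomal protein share, and may differ in depth. Such differences enter each of these values. The SD of a ratio also depends on how much the chain itself varied. Over the 8 libraries the SD of the chain (log2) was 0.496 for Col2a1 and 0.164 for Col9a1. Genes near a steady chain such as Col9a1 may therefore be merely steady too, and Col2a1 ranked 2975 for Col9a1.

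Acan varied between libraries as the long chains did. It stood at 291, 544, 262 and 673 FPKM in vSSC, and at 393, 398, 512 and 605 FPKM in lbSSC. vSSC replicates 1 and 3 were low and replicate 4 of each group was high, and the groups overlapped (difference -0.20 ± 0.28 SE, adjusted p = 0.627 in limma).

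Other partners of the cartilage fibril did differ by site. Of 21 tested genes of fibril-associated and cartilage matrix proteins, 5 were called higher and 6 lower in vSSC, with a median difference of -0.05 beside 0.08 over all genes. Over all genes 14.3% were called higher and 9.17% lower. That split moved with the scaling: 1534 of 2518 called genes were higher in vSSC as reported, 1274 of 2457 with median-of-ratios scaling, 1091 of 2209 with quantile normalization and 1002 of 2365 after rescaling to one sum. Rescaling put the median of all genes at -0.04, and the 7 collagen differences stayed negative under each of these scalings. The matrilins, adaptors that bind collagen fibrils to other matrix, moved in both directions. Matn1 averaged 33.4 ± 9.6 FPKM in vSSC and 408.7 ± 67.2 FPKM in lbSSC (SD, n = 4 each), a difference of -3.61 ± 0.20 (SE, adjusted p = 5.8e-07 in limma). Matn3, which binds collagen IX, was higher in vSSC at 1506 ± 89 FPKM, against 542 ± 86 FPKM in lbSSC (difference 1.49 ± 0.13 SE, adjusted p = 1.74e-05 in limma). Matn4 fell by 1.49 in vSSC and Ecm1 by 1.69 on the log2 scale. Hapln1, the link protein that ties aggrecan to hyaluronan, rose by 0.91 to 1887 ± 176 FPKM in vSSC, against 1004 ± 108 FPKM in lbSSC.

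The regulators of these genes were mixed. Of 18 tested, 5 were called higher and 3 lower in vSSC, beside 14.3% and 9.17% of all genes, with a median difference of -0.03. Sox9 stood at 72.1, 129, 64.7 and 191 FPKM in vSSC, and at 72.7, 93.0, 112 and 118 FPKM in lbSSC. vSSC held the lowest and the highest libraries, again replicates 1 and 3 against 4, and the difference was 0.09 ± 0.30 (SE, adjusted p = 0.843 in limma). The called genes with the smallest p were Nkx3-2, a repressor that favours the chondrocyte fate (1.16), Zfp521 (-1.31), Foxa3, a forkhead factor (0.81), Mef2c, a factor of chondrocyte hypertrophy (0.64), and Zfp219, a SOX9 cofactor (-0.60).

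Collagen processing enzymes also split. Of 32 tested genes of chain modification, folding, cleavage and crosslinking, 8 were called higher and 9 lower in vSSC, with a median difference of 0.10. Among all genes these shares were 14.3% and 9.17%. P4ha2, a prolyl 4-hydroxylase subunit, was higher at 174 ± 17 FPKM in vSSC, against 90.04 ± 6.87 FPKM in lbSSC (difference 0.94 ± 0.11 SE, adjusted p = 0.000111 in limma). Pcolce, an enhancer of procollagen C-proteinase, was lower at 222 ± 16 FPKM in vSSC, against 445 ± 25 FPKM in lbSSC (difference -0.999 ± 0.099 SE, adjusted p = 5.18e-05 in limma). The crosslinking enzymes were mixed. Loxl1 and Loxl4 fell by 2.02 and 0.97 and Lox was called lower (-0.56), but Loxl2 was called higher (0.78) and Loxl3 (0.11) was not called. Tll1, a procollagen C-proteinase, fell by 1.19.

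Other fibrillar and fibril-associated collagens gave the clearest contrast with the 7 genes. Of 10 tested, 0 were called higher and 8 lower in vSSC, with a median difference of -1.18. All genes tested gave 14.3% higher and 9.17% lower. Col1a1 averaged 723 ± 72 FPKM in vSSC and 4093 ± 836 FPKM in lbSSC, a difference of -2.48 ± 0.15 (SE, adjusted p = 1e-06 in limma), and Col1a2 differed by -1.74. Col5a2, Col14a1 and Col3a1 fell by 1.38, 1.46 and 0.98. Markers of other cells that make collagen I moved in the same direction in part. Of 6 tested osteoblast markers 2 were called lower in vSSC, Bglap (-1.55) and Dmp1 (-1.58), and 1 higher, Sp7 (0.61), and the sums given above overlapped. Of 4 tendon markers 2 were called lower, Tnmd (-0.79) and Kera (-1.67), and they summed to 46.7 to 88.2 FPKM in vSSC and 90.3 to 127 FPKM in lbSSC, without overlap. Their part in the collagen differences was not tested. In vSSC the Col2a1 mean was far above that of Col1a1, and in lbSSC the excess was smaller. Among 15 tested collagen receptors and proteases, 0 were called higher and 5 lower in vSSC (median difference -0.33). They were Ctsk, the collagenase cathepsin K (-0.92), Itga11, a collagen-binding integrin chain (-1.11), Ddr2, a receptor for fibrillar collagen (-0.67), and the metalloproteinases Mmp14 (-0.53) and Mmp9 (-0.67). Ctsk and Mmp9 are also osteoclast genes. The 6 macrophage and osteoclast markers, Ctsk among them, summed to 56.1 to 78.3 FPKM in vSSC and 108 to 128 FPKM in lbSSC. Both that passed the filter, Ctsk and Acp5 (-0.52), were called lower, while Csf1r averaged 0.0688 FPKM in vSSC and 0.114 FPKM in lbSSC. The part of such cells was not tested.

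Genes tied to chondrocyte hypertrophy numbered 10, and of these Sp7 and Ibsp are also in the list of osteoblast markers. Of the 10 genes, 4 were called higher and 1 lower in vSSC, beside 14.3% and 9.17% of all genes. The median difference was 0.35, beside 0.08 over all genes. Ihh (1.51), Pth1r (1.11), Panx3 (1.23) and Sp7 (0.61) were higher, and Col10a1, the collagen of hypertrophic cartilage, fell by 1.25.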

How the data were processed

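Sorted cells from 8 libraries were profiled by bulk RNA-seq. Per the labels' protocols, RNA was purified on a column, and SMART-Seq v4 cDNA went into Nextera XT libraries, which do not mark strand. The tools, per the submitters' processing notes, were Cufflinks 2.1.1, STAR 2.5.2 and bcl2fastq 2.19, with build GRCm38. The authors deposited FPKM for each protein-coding gene. Because FPKM depends on a library's mapped total, higher abundant genes lower all others. Read totals were not used here.

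Values were transformed to log2(FPKM + 1). Genes reaching an FPKM of 1 in 4 or more libraries (10729) were fitted with limma 3.58.1 in R 4.3.3 (vSSC minus lbSSC, variance trend, no covariate). The sex fit kept site as a covariate, and a further fit tested their interaction. Calls used a Benjamini-Hochberg adjusted p under 0.05 over all genes. Chain ratios were tested with scipy 1.17.1 by exact permutation. On simulated data of the site design with 10729 genes the procedure recovered 26% of genes changed by 0.5 (log2), 76% at 1, 98% at 2 and 100% at 3, with 5.06% wrong calls. The changed genes were drawn at random from all genes tested, with errors independent between genes. These rates are therefore not those of chains with a wide spread, such as Col11a2, whose SE was 0.33. Trends on length and GC used loess with a span of 0.5.

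The genes and lists were chosen with earlier results of these data known. Named genes are the 7 chains, up to 5 genes of each list with the smallest p, and the 3 genes most like each chain. Acan, Sox9, Lox, Loxl2, Loxl3 and the marker genes were added as context. Alternatives were other pseudocounts, filters, scalings and covariates, a replicate block, and libraries left out.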

Additional observations from a re-analysis of the deposited data

Results flagged for a closer look

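Of 34 groups of 4 libraries tested for a library far from the others, 1 stood out, and chance alone gives about 1 in 20. Col9a1 in vSSC replicate 4 was at 2192.09 FPKM, against 1731.07 FPKM in the nearest other vSSC library. The gap was 0.877 of the group's range, above Dixon's critical value for 4 samples. Without that library the site difference of Col9a1 was -0.24, still not called.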

How the results depend on the processing

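For the site differences of the 7 genes, 140 of 161 alternative values kept their sign and their side of the threshold. The sign turned without both vSSC replicates 1 and 3 for Col2a1 (0.0538), Col9a2 (0.0219), Col9a3 (0.13), Col11a1 (0.15), Col11a2 (0.14) and Col27a1 (0.42). It turned when the ribosomal protein share was a covariate, for Col2a1 (0.57), Col9a1 (0.0574), Col9a2 (0.31), Col9a3 (0.29), Col11a1 (0.53), Col11a2 (0.79) and Col27a1 (1.05), where 2 of the 7 genes were called. It also turned for Col9a3 with the GC trend removed (0.0610), and with the length and GC trends removed for Col9a3 (0.11) and Col27a1 (0.24). With single libraries left out, the difference ran from -0.13 to 0.0656 for Col9a3, positive without vSSC replicate 1, vSSC replicate 3 or lbSSC replicate 4, and from -0.49 to 0.0050 for Col27a1, positive without vSSC replicate 1 or 3. Genes called numbered 2518, between 1534 (without lbSSC replicate 3) and 2991 (without vSSC replicate 4) with single libraries left out. They numbered 1673 without replicate 1 of vSSC, 1646 without replicate 3 of vSSC and 1589 without replicate 4 of lbSSC. Leaving out both vSSC replicates 1 and 3 gave 1095, and adding the ribosomal protein share gave 621.

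Of the chain ratios, 112 of 120 alternative values moved by less than the spread between libraries or kept their sign and their side of the threshold. With the length and GC trends removed, the sign turned for Col9a2/Col9a1 (0.0572), Col11a2/Col11a1 (0.0173), Col11a1/Col2a1 (-0.0172), Col11a2/Col2a1 (6.83e-05), the collagen IX sum over Col2a1 (-0.0023) and the collagen XI sum over Col2a1 (-0.0114). In that setting Col9a3/Col9a1 (0.20) and Col27a1/Col2a1 (0.27) reached the smallest exact permutation p of 0.0286 (adjusted p = 0.143). Without both vSSC replicates 1 and 3, Col11a2/Col2a1 moved to 0.0888 and Col27a1/Col2a1 to 0.38. The sign also changed there, by less than that spread, for Col9a2/Col9a1 (0.0745), the collagen IX sum over Col2a1 (-0.0397) and the collagen IX sum over the collagen XI sum (-0.13). Every sex and interaction alternative kept its side. The cause of these changes was not tested. The fits with trends removed were added after the data were seen, and those without the 2 replicates and with the ribosomal protein share were planned with earlier results of these data known.

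The labels do not say whether same-numbered libraries share animals. Correlations of same-numbered libraries were 0.26, -0.09, -0.06 and 0.44, too few values to settle whether they were paired. vSSC replicates 1 and 4 correlated best with the lbSSC library of their own number, and replicates 2 and 3 did not. With the replicate number as a block, 3194 genes were called, against 2518 without it, and 0 of the 7, at adjusted p between 0.123 and 0.924 (limma). A paired test of 4 pairs cannot go below 0.125, so the ratios could not pass it. Depth is unknown, so the limit it sets on these results could not be given.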
